A study of Mus musculus with 3 samples.

Results

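Beta-defensin genes, taken as all genes of the assembled transcript table whose symbol begins with Defb and a digit, numbered 44 of 22426 RefSeq-named genes. They were represented by 46 of the 50081 transcript models. The table came from a study of transcript starts and ends in the testes of wild-type C57BL/6J mice. It had 3 libraries of total RNA with 1 library in each group, namely CAGE (which captures capped 5′ ends) from mice aged 10.5 days, CAGE from adult mice, and PAS-Seq (which captures polyadenylated 3′ ends) from adult mice. The deposited table gives 1 set of models for the whole series. It holds no count or level for any library, so the depth behind each model is unknown, the ages could not be compared, and no result below has replicates or a test.

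Beta-defensins are short secreted cationic peptides held together by pairs of disulfide-bonded cysteines. In the usual gene the first exon encodes the signal peptide and the last exon the mature peptide. They kill microbes at epithelial surfaces, some attract immune cells through chemokine receptors, and many are known for their expression along the epididymal duct, where they coat sperm after it leaves the testis. The genes arose by tandem duplication and lie in clusters, so that neighbours can be similar in sequence.

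Each model had a code in the table that opened with 2 letters, which for the Defb models were NM or XX. What these letters stand for is not stated in the labels or the table. A gene was called coded here when at least 1 model under its symbol had a code that did not begin with XX. Of the 44 Defb genes, 11 were coded (25%, exact Clopper-Pearson 95% interval 13.2 to 40.3%, which covers counting error only), all 11 as NM. The other 33 had XX models alone. Over all RefSeq-named genes the share was 62.3% (13970 of 22426), and without microRNA, olfactory and vomeronasal receptor genes it was 68.1%. Defb genes are small. Among 850 other genes outside those families, with 2 or 3 exons and a spliced length within the Defb range, the share was 50.5%. The Defb share was thus below all 3 backgrounds. Whether the code follows annotation, filtering or signal cannot be told apart here, so an XX model is not a sign that a gene was silent.

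The coded genes lay in 4 of the 6 clusters that form when neighbouring Defb genes less than 500 kb apart are joined. The cluster on chromosome 2 (152284791 to 152448789, mm9) held 5 coded genes of 11, which were Defb28, Defb21, Defb19, Defb45 and Defb36. On chromosome 14 (63596361 to 63667443) 2 of 5 were coded, Defb30 and Defb42, and they were the last pair in the cluster. Chromosome 8 held a proximal cluster (18974940 to 19497775) with 3 coded genes of 14, Defb40, Defb14 and Defb6, and a distal cluster (22887027 to 23059094) with 1 of 9, Defb13 at its far end. None of the 3 genes on chromosome 1 (18200134 to 18255219) was coded, and neither of the 2 genes on unplaced sequence of chromosome 8. No gene on unplaced or mitochondrial sequence alone was coded in the whole table (0 of 60), and no CUFF model (named as the Cufflinks assembler names its output) lay on the unplaced sequences of placed chromosomes, and the codes of Defb33 and Defb48-ps are read with that limit.

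**Figure D1:**
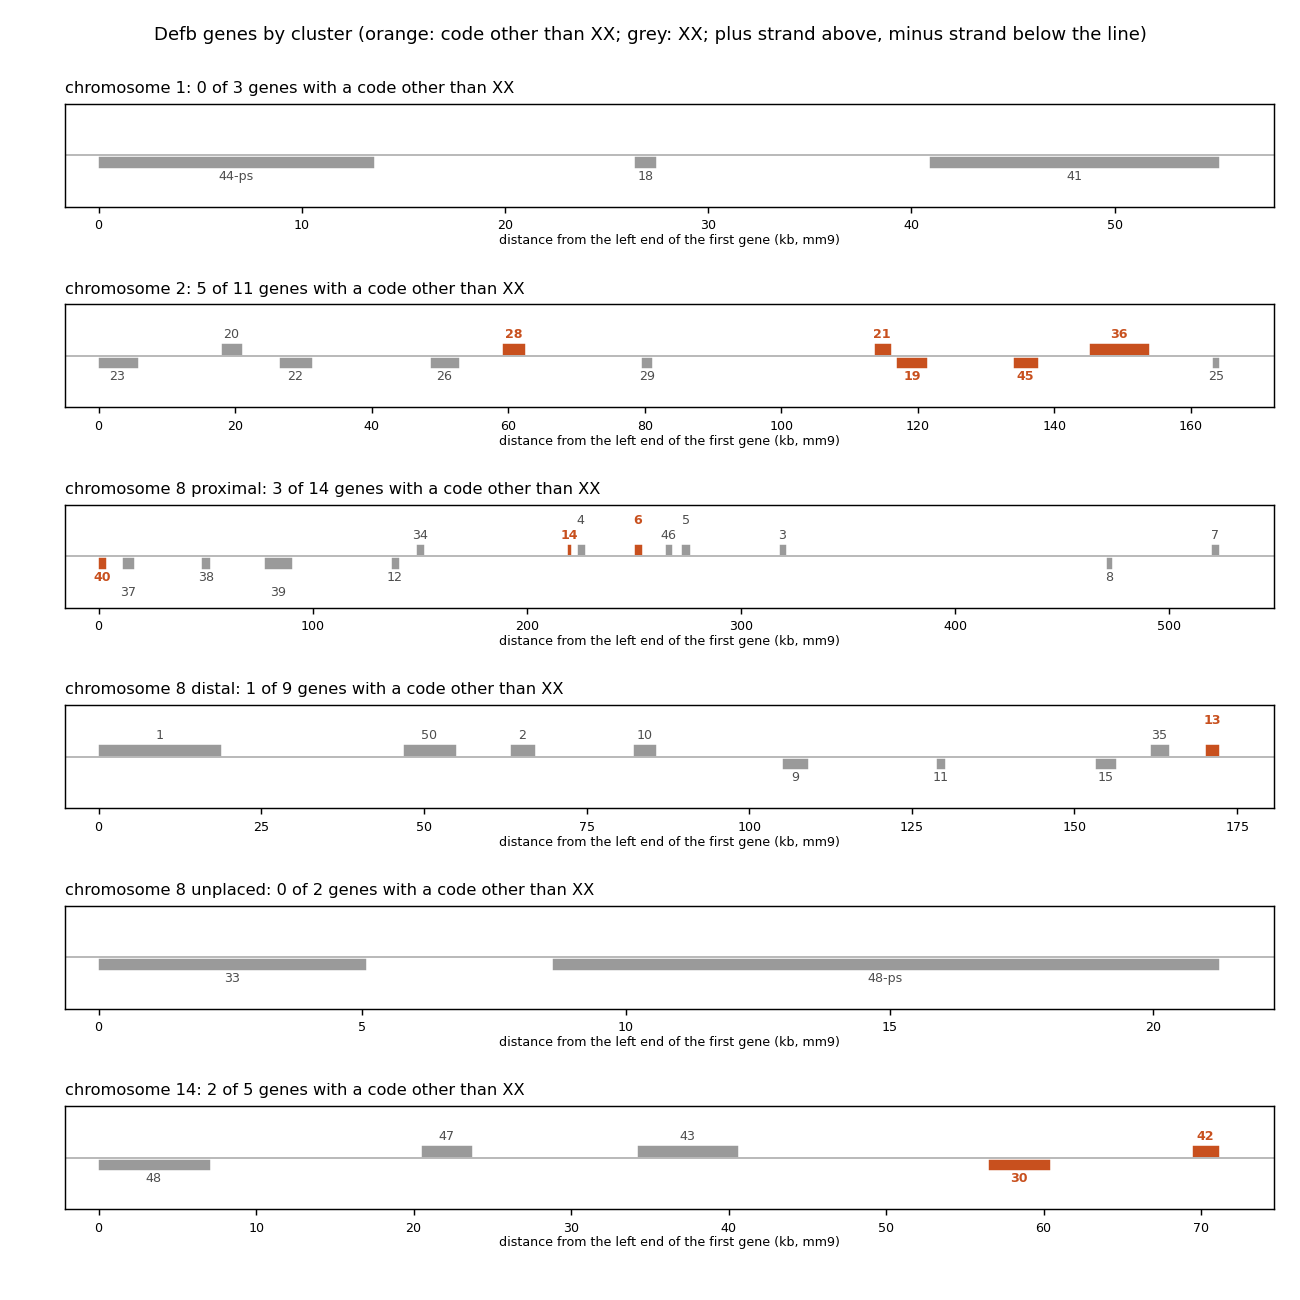
Position of the 44 Defb genes in 6 clusters, in kb from the left end of the first gene of each cluster (mm9). Boxes above the line are plus-strand genes and boxes below it minus-strand genes; orange marks the 11 genes with a code other than XX, and Defb21, Defb19, Defb45 and Defb36 follow each other on chromosome 2.

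Some coded genes were neighbours. Defb21, Defb19, Defb45 and Defb36 followed each other without an XX gene between them, and Defb30 lay next to Defb42. These made up 4 of the 38 neighbouring pairs within clusters in which both genes were coded, while 1 gene was coded in 11 pairs and neither in 23. No such share was computed for neighbouring genes outside the family, so the counts do not show that coded genes group together. Gaps between neighbours ranged from 1142 to 150430 bp with a median of 13221 bp. The narrowest gap was that between Defb21 and Defb19, which converged from opposite strands. Defb45 and Defb36 were divergent across 7841 bp, and Defb30 and Defb42 across 9144 bp between their RefSeq models.

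The XX genes, 33 of the 44, included several well-known epithelial members, which were picked with their codes known. At that share the examples do not set epithelial members apart from the rest of the family. Defb1, the constitutive beta-defensin of kidney and other epithelia, had an XX model of 916 nt, the longest in the distal chromosome 8 cluster and second to Defb12 (997 nt) among XX genes. Defb4 and Defb3, which are induced in infected epithelia, were coded XX, as was Defb22, which encodes a major component of the sperm surface coat. Defb41, known from the first segment of the epididymis, was also XX. Of the Defb37 to Defb40 group, described from the epididymis, Defb40 was coded NM and Defb37, Defb38 and Defb39 XX. Both pseudogenes, Defb44-ps and Defb48-ps, were XX. Defb14, the coded gene on chromosome 8 best known from skin, encodes a peptide that attracts immune cells through Ccr6, and Ccr6 itself had XX models alone. Among 4 genes for receptors reported to bind beta-defensins, Tlr4 was coded and Ccr6, Ccr2 and Mc1r were not.

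Older clone names recorded for the genes in the GRCm38.p6 RefSeq gene table, to which all 44 accessions matched, were found for 8 Defb genes, 2 coded and 6 XX. Names from the RIKEN adult testis clone library belonged to Defb21 (4930525K10Rik) and Defb30 (4930449O14Rik), both coded. Names from the RIKEN adult epididymis library belonged to Defb41 (9230102D03Rik), Defb20 (9230107O10Rik), Defb22 (9230002F21Rik) and Defb12 (9230103N16Rik), all 4 of them XX. The XX genes Defb29 (0610030I09Rik) and Defb4 (2310001F05Rik) had names from other libraries, as did Defb30 for a further clone (2410125J01Rik). In the table as a whole, 68.9% of 225 genes still named by a clone of that testis library were coded, and 5 of 10 named by a clone of that epididymis library. Those genes have a clone name as their symbol, whereas the Defb genes have it as an older name. The sets are therefore unlike, and no share was computed for other renamed genes. The testis and epididymis libraries were picked out after the codes were seen.

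Lists of other genes were set beside the coded share of 62.3% over all RefSeq-named genes and 50.5% over other genes of the Defb size. None of 17 alpha-defensin genes and pseudogenes, the granule peptides of Paneth cells, was coded. Of 14 other antimicrobial genes 4 were coded, the siderophore-binding Lcn2, the lysozymes Lyz1 and Lyz2, and Bpi, while Camp, the cathelicidin, Ltf, S100a8, S100a9, Reg3g, Reg3b, Slpi, Pglyrp1, Elane and Mpo were XX. None of the 6 neutrophil markers found was coded (Ly6g was not found under that symbol), and neither of 2 keratinocyte markers, Krt5 and Krt14. Mpo, Elane, S100a8, S100a9 and Camp stand in both the neutrophil and the antimicrobial list. Among 15 symbols for sperm-coating and WFDC genes 7 were coded, Spag11b, Eppin, Wfdc6a, Wfdc10, Wfdc11, Wfdc15a and Spint5. Spag11a was XX although Spag11b, which lies beside it within the proximal chromosome 8 Defb cluster and encodes a defensin-like sperm-binding protein, was NM. The symbol Spinlw1, an older name of Eppin, was listed separately and carried an XX model over the same place, so Eppin enters this list under 2 names.

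The markers listed for cells of the testis were all coded, and most of those listed for the epididymis were not. All 6 Sertoli, 5 Leydig, 6 spermatid and 3 macrophage markers were coded. Of 16 markers of epididymal epithelium 3 were coded (18.8%), Crisp1, Cst8 and Cst12, while Lcn5, Lcn8, Lcn9, Lcn10, Lcn12, Adam7, Rnase9, Rnase10, Rnase12, Cst11, Gpx5, Ros1 and Pate4 had XX models alone. Beside these stood 62.3% of all RefSeq-named genes and 50.5% of other genes of the Defb size. The marker lists were not matched for gene size. The part of any cell type in the codes of the Defb genes was not tested.

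**Figure D2:**
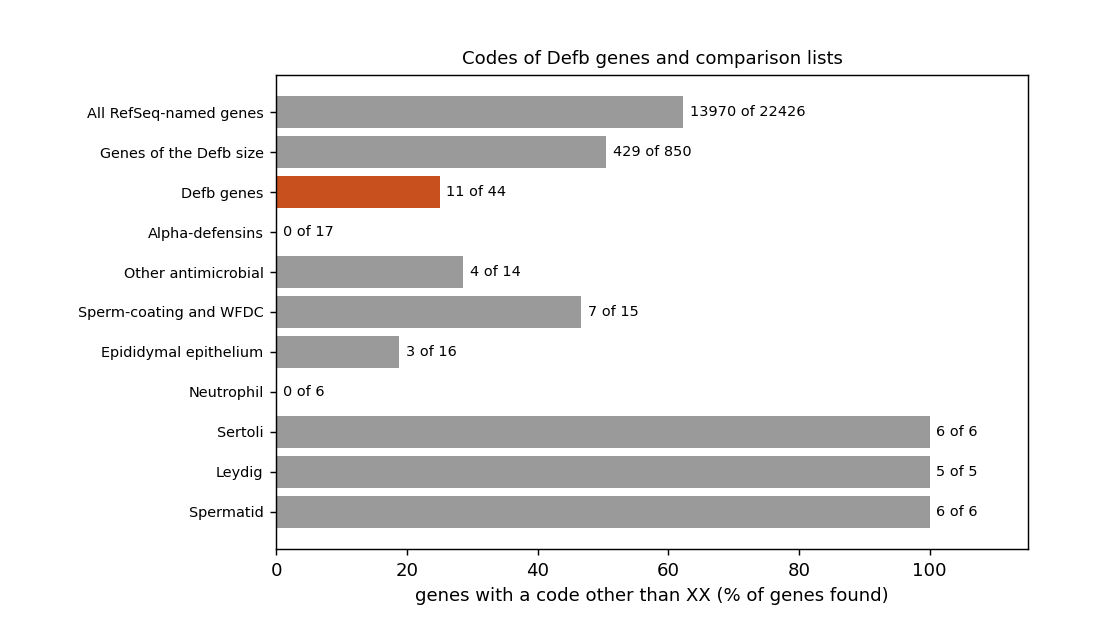
Share of genes with a code other than XX, in percent of the genes found (x axis), for all RefSeq-named genes, genes of the Defb size, the Defb genes (orange) and lists of related genes and cell type markers. Labels give coded genes of genes found; Defb genes stood at 11 of 44, alpha-defensins at 0 of 17 and Sertoli, Leydig and spermatid markers at their full number.

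The Defb genes with 3 exons were coded in a larger share than those with 2, a share near that of all genes. Of the 44 genes, 38 had 2 exons and 6 had 3. Among the genes with 3 exons 4 were coded (66.7%), Defb28, Defb21, Defb30 and Defb42, and 2 were XX, Defb12 and Defb33, the latter on unplaced sequence. Among the genes with 2 exons 7 were coded (18.4%). Over all RefSeq-named genes the coded share was 62.3%, and the share among other genes with 3 exons was not computed. The middle exon measured 165 nt in Defb28, 87 nt in Defb21, 172 nt in Defb30 and 175 nt in Defb42, against 42 nt in Defb12 and 169 nt in Defb33. The median exon number was 2 in both groups. Over all RefSeq-named genes the medians were 8 exons for coded genes and 4 for XX genes.

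Spliced lengths overlapped. Coded genes ranged from 224 nt (Defb13) to 1002 nt (Defb30) with a median of 394 nt, and XX genes from 174 nt (Defb46) to 997 nt (Defb12) with a median of 331 nt. All coded genes but Defb30 lay inside the XX range. Within clusters the order of the medians was not uniform. On chromosome 2 the 5 coded genes had a median of 397 nt (388 to 468 nt) and the 6 XX genes 624.5 nt (293 to 690 nt). On chromosome 14 the coded pair measured 1002 and 614 nt, above the 3 XX genes at 359 to 445 nt. In the proximal chromosome 8 cluster the medians were 323 nt for 3 coded and 286 nt for 11 XX genes, and in the distal cluster Defb13 at 224 nt was shorter than all 8 XX genes (267 to 916 nt).

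The chromosome 2 contrast lay in the last exon. Defb23, Defb20, Defb22 and Defb26, which follow each other at the left end of the cluster, had last exons of 538, 581, 540 and 545 nt. The last exons of the 5 coded genes measured 126 nt in Defb28, 259 nt in Defb21, 271 nt in Defb19, 241 nt in Defb45 and 249 nt in Defb36. The remaining XX genes of the cluster, Defb29 and Defb25, had 307 and 209 nt. First exons were alike over the whole family, with a median of 87 nt in coded genes (60 to 219 nt) and 85 nt in XX genes (40 to 158 nt). The longest first exon belonged to Defb36 and the shortest to Defb33. First introns had a median of 1656 nt in coded genes (393 to 7935 nt) and 2813 nt in XX genes (361 to 17715 nt, the longest in Defb1), and the ranges overlapped.

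**Figure D3:**
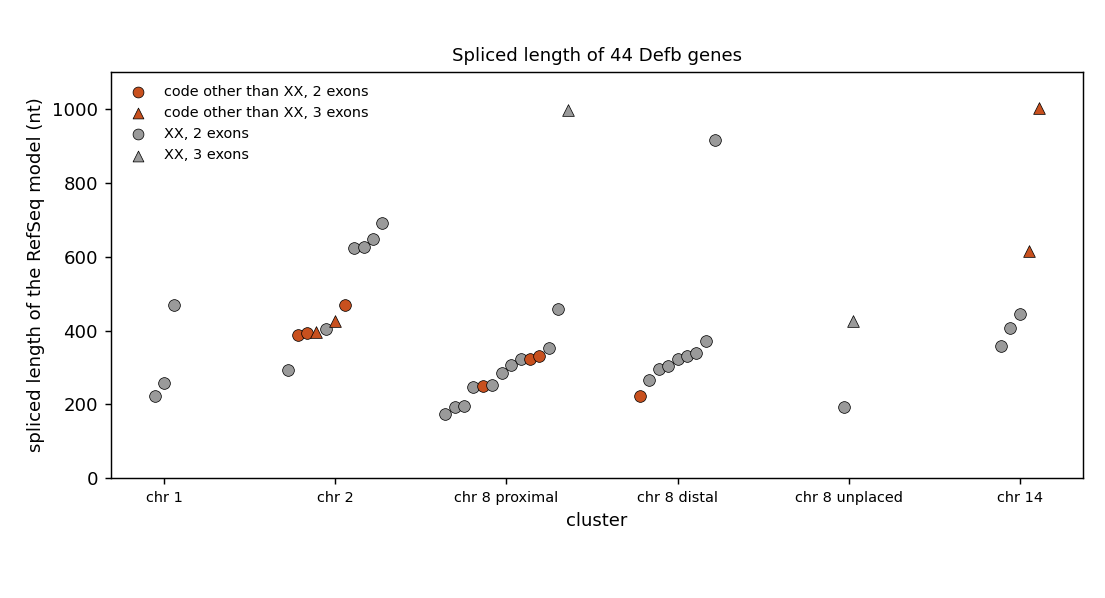
Spliced length in nt of the RefSeq model of each Defb gene (y axis) by cluster (x axis), with genes in order of length within a cluster. Orange points are genes with a code other than XX, grey points XX genes, circles genes with 2 exons and triangles genes with 3; on chromosome 2 the coded genes sit between 388 and 468 nt, and Defb30 reaches 1002 nt on chromosome 14.

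Defb30 was the Defb gene with more than its RefSeq model. Each of the other 43 genes had 1 model, taken from RefSeq, a share of 97.7% against 61.5% of all RefSeq-named genes. A CUFF model under the same symbol was thus present for 1 of 44 Defb genes (2.27%), against 28.5% of all RefSeq-named genes, 39.4% of those coded and 10.5% of those with XX models alone. More than 1 distinct start, with positions within 50 nt merged, was found for Defb30 alone, against 26.7% of RefSeq-named genes, and the same held for ends (23.0%). These backgrounds, and those for overlapping models below, were not matched for size. At the median, Defb genes had fewer exons and shorter spliced lengths than RefSeq-named genes.

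At Defb30 the CUFF models moved the start far upstream. The RefSeq model ran from 63656683 to 63652924 on the minus strand of chromosome 14 in 3 exons of 89, 172 and 741 nt. CUFF.8132.2 had the same end and the same exons 2 and 3, but its first exon of 192 nt began at 63668790, 12107 bp upstream of the RefSeq start. CUFF.8132.3 shared that start and had 2 exons. Its last exon covered the second RefSeq exon and ran 142 nt beyond it into the intron, so that it ended 1701 bp short of the RefSeq end and lacked the 741 nt exon. Neither CUFF model contained the RefSeq first exon. All 3 models were coded NM.

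The long first intron of Defb30 enclosed Defb42. In CUFF.8132.2 this intron spanned 63654939 to 63668598 (13660 nt), and the whole of Defb42 (63665828 to 63667443, plus strand, 3 exons, 614 nt) lay inside it, 1155 bp from the CUFF first exon, with no exon shared. Between the RefSeq models alone, the genes were separate and their starts lay 9145 bp apart. The only coded pair on chromosome 14 thus overlapped through the assembled form of Defb30.

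Defb14 was joined on its own strand by a pair of assembled models that bear no gene name. Its RefSeq model (chromosome 8, 19194328 to 19195309, plus strand) had exons of 87 and 243 nt. CUFF.24958.1 (695 nt) and CUFF.24958.2 (844 nt), both with 3 exons and both coded XX, covered all 330 nt of it and used the same splice donor and acceptor between the Defb14 exons. CUFF.24958.1 started 30463 bp upstream, in an exon of 232 nt that lay 4286 bp beyond the end of Spag11a, and CUFF.24958.2 started 6828 bp upstream. In both, the exon over Defb14 exon 1 began before the RefSeq start, by 24 nt in CUFF.24958.1, and the end lay 109 nt past the RefSeq end. The first exon of CUFF.24958.1 also overlapped, over its full 232 nt, an opposite-strand model of 5365 nt, CUFF.24957.1. Both models carry another name, so they enter none of the counts of starts above.

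A further same-strand overlap was within the annotation. Gm15386 (256 nt, XX) shared the first exon of Defb41 and the same start and ended 9546 bp short of the Defb41 end. In the GRCm38.p6 table its accession belongs to Defb41. Same-strand models of another name thus overlapped exons of 2 Defb genes (4.55%), against 7.07% of RefSeq-named genes.

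Opposite-strand models overlapped 4 Defb genes, all of them coded. These were Defb30 and Defb42, which overlapped each other, Defb21 and Defb13. The share was 4 of 11 coded genes (36.4%, exact 95% interval 10.9 to 69.2%), against 23.0% of all coded RefSeq-named genes, a value inside that interval. The interval takes the genes as independent, although Defb30 and Defb42 count the same overlap. None of the 33 XX Defb genes had an opposite-strand model, against 12.2% of all RefSeq-named genes with XX models alone. The limit of 3 counts for a share of 0 was 9.09%, but it takes clustered genes as independent. It also counts Defb33 and Defb48-ps, on unplaced sequence where no CUFF model lay. No difference from 12.2% is therefore drawn from it. Over all 44 genes the share was 9.09%, and over all RefSeq-named genes 19.0%. When exons had to overlap, Defb21 alone remained, against 13.2% of RefSeq-named genes, and with RefSeq-derived models alone none did. No Defb gene had an opposite-strand start within 500 bp head to head (11.3% of RefSeq-named genes) or an opposite-strand end within 500 bp tail to tail (4.91%).

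The antisense model at Defb21 began inside the gene. CUFF.15524.1 (chromosome 2, 152397466 to 152399462, minus strand) was an unspliced model of 1997 nt coded XX. Its start lay 982 bp downstream of the RefSeq start of Defb21 (152398480), in the first intron, and it ran across the 80 nt first exon and ended 1014 bp upstream of it. The second exon of Defb21 began 1017 bp after the RefSeq start in mm9. The RefSeq promoter table gives 2 starts for Defb21 in GRCm38.p6, 1005 bp apart, and no position was carried between the builds. At Defb13 the opposite-strand model CUFF.24992.1 (chromosome 8, 23058153 to 23058435, 283 nt, XX) lay wholly inside the intron of 1637 nt.

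**Figure D4:**
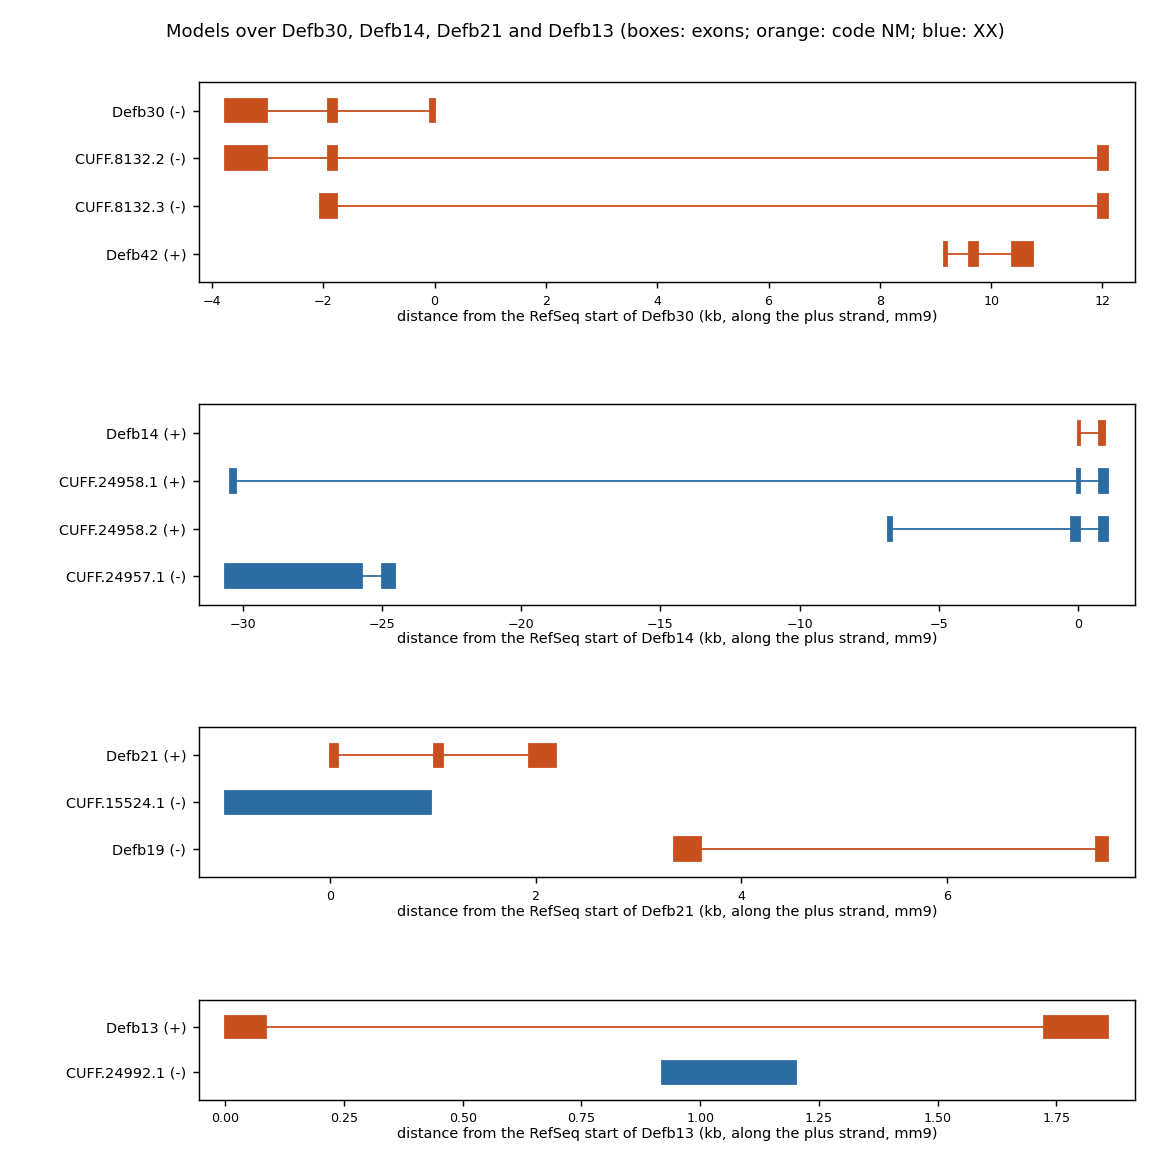
Models over 4 coded Defb genes, drawn as exons (boxes) and introns (lines) against the distance in kb from the RefSeq start of the gene, along the plus strand (mm9); strand signs follow the names, and orange marks models coded NM and blue those coded XX. Defb42 lies inside the first intron of the Defb30 models that start 12107 bp upstream, 2 models extend Defb14 upstream by 6828 and 30463 bp, and single-exon models lie over Defb21 and Defb13 on the other strand.

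Assembled models of other names came closer to coded than to XX Defb genes. The nearest such CUFF model overlapped or lay a median of 2359 bp from the 11 coded genes, with a range of 0 to 72631 bp (Defb40). For the 31 XX genes on placed sequence the median was 44497 bp, with a range of 1880 bp (Defb7) to 268451 bp (Defb41). It overlapped 4 coded genes, Defb13, Defb14, Defb21 and Defb42, and no XX gene, and it lay within 20000 bp of 7 of 11 coded and 8 of 31 XX genes. Defb19 and Defb45 were 2359 and 2088 bp from one, and the model next to Defb45, CUFF.15518.1, lay downstream of its end on the same strand. The ranges of the groups overlapped. For all 8 XX genes of the distal chromosome 8 cluster the nearest such model was CUFF.24992.1, which lies inside Defb13. Several other XX genes had as nearest a model over Defb14 or Defb21, or a CUFF model of Defb30. Such distances partly repeat the distance to a coded neighbour, so the medians of the groups are not separate measurements. Over all RefSeq-named genes the medians were 8345.5 bp for coded and 31929 bp for XX genes, so the order was the same there. Within 20000 bp lay 65.3% of all coded and 40.6% of all XX RefSeq-named genes, so the share of coded Defb genes was near its background and that of XX Defb genes was below.

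**Figure D5:**
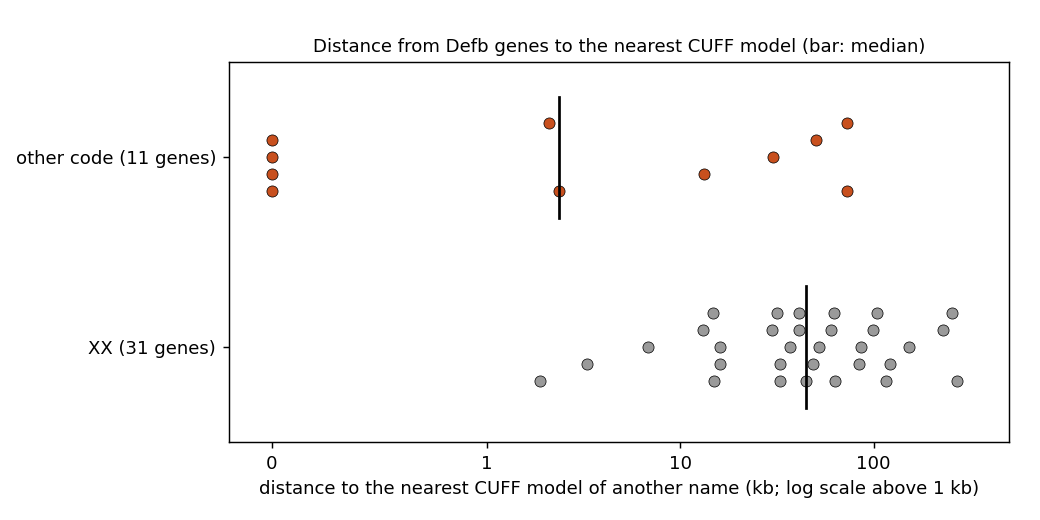
Distance in kb from each Defb gene to the nearest CUFF model of another name (x axis, log scale above 1 kb and linear below), for 11 genes with a code other than XX (orange) and 31 XX genes on placed sequence (grey). Points are genes, spread vertically for legibility, and bars are the medians of 2359 and 44497 bp; 4 coded genes sit at 0.

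Promoter windows of 300 bases, from 250 before to 50 after the annotated start, were at hand for 29 of the 44 genes (30 windows, RefSeq on GRCm38.p6), 8 of them coded and 21 XX. The strongest likeness was found in the proximal chromosome 8 cluster, where the windows of Defb3, Defb5, Defb6, Defb7, Defb8 and Defb46 were 66.8 to 88% identical in pairwise global alignments (median of 15 pairs 77%), against a median of 52.8% over 434 pairs of windows of different Defb genes, in which Defb21 enters with 2 windows. Defb6, first described from muscle, was the coded member of this group, and the other 5 were XX. The windows of 3 members are shown because they hold a stretch of 17 bases, in capitals, that occurred in all 6 and in no other of the 32851 windows of the table:
Defb6 (chr8:19225228-19225527, plus strand): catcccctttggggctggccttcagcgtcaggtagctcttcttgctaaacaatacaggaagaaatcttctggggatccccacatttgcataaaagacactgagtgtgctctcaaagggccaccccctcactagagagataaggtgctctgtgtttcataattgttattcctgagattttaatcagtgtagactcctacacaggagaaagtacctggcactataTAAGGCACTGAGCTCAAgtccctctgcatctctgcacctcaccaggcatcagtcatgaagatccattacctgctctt
Defb3 (chr8:19293111-19293410, plus strand): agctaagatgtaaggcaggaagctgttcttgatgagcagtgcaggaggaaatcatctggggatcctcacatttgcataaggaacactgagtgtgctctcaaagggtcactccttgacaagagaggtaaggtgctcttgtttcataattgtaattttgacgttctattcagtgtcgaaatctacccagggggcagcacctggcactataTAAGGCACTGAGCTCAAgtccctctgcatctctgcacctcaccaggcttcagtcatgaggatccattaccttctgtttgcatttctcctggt
Defb46 (chr8:19239666-19239965, plus strand): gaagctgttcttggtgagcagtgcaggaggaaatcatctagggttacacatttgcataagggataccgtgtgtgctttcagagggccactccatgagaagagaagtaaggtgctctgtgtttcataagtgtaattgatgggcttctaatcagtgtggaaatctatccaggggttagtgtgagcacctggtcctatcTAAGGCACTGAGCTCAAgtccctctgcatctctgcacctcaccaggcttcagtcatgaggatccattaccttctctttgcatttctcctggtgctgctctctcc

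The stretch sat at different distances from the annotated starts. Counted with the start base as 1 and no 0, it began at -27 in Defb6, and at -41 in Defb8, -42 in Defb3, -43 in Defb7 and -54 in both Defb5 and Defb46. Just before it, overlapping its first bases, all but Defb46 had the letters TATATAA, a form of the TATA box. These began at -31 in Defb6 and at -45 to -58 in the 4 XX genes. The annotated start of Defb6 was thus the nearest to these letters. TATATAA, on either strand, was in 3.24% of all windows, and it was searched after the windows had been read. How reads that match several of these genes were placed is not stated in the labels, and its part in the codes was not tested.

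Other letters were searched for in all 30 windows, the similar chromosome 8 windows included. TATAAA, on either strand, was present in 1 of 9 windows of coded genes (11.1%), in 4 of 21 windows of XX genes (19%) and in 13.6% of all windows. It stood at -35 in Defb15 and at -30 in Defb48, both XX, and farther off in Defb23, Defb7 and Defb30. The series concerned A-MYB, a MYB family factor of meiosis, so the MYB core words CAACTG, with TAACTG as a variant, and likewise CAACGG, with TAACGG as a variant, were searched on both strands. They were found in 3 of 9 windows of coded genes (33.3%), in 2 of 21 of XX genes (9.52%) and in 28.3% of all windows. The share in the coded windows was therefore near the background. A match of 6 letters is a description and no sign of binding. Windows with matches in capitals are shown for the coded genes Defb45, with a pair of MYB words, and Defb30, whose RefSeq start differed from the assembled one, and for the XX gene Defb48, with TATAAA at the usual distance:
Defb45 (chr2:152596436-152596735, minus strand): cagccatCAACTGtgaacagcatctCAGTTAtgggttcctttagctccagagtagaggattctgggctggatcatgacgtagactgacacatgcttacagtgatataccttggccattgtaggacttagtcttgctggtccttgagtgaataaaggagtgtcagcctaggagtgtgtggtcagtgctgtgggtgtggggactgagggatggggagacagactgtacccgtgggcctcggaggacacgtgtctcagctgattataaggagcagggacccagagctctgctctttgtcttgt
Defb30 (chr14:63037797-63038096, minus strand): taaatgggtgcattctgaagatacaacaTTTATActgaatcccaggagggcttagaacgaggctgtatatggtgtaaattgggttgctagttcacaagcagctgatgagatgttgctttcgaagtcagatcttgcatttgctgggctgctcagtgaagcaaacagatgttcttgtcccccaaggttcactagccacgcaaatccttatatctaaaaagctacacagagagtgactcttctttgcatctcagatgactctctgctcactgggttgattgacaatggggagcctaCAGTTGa
Defb48 (chr14:62984461-62984760, minus strand): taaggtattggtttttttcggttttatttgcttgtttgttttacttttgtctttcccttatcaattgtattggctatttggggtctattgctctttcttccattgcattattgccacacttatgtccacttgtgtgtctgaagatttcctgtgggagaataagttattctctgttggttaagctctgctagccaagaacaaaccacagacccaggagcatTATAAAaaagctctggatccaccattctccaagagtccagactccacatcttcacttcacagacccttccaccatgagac

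In Defb45 the MYB words began at -243 (CAACTG) and -225 (CAGTTA, the other strand), in Defb30 at 44, and in the coded gene Defb36 at 42, so those of Defb30 and Defb36 lay after the annotated start. The Defb30 window surrounds the RefSeq start, not the assembled one 12107 bp upstream. The remaining matches were in the XX genes Defb43 and Defb8. Base composition overlapped as well. The GC content had a median of 51% in the windows of coded genes (44.3 to 52.3%), 47.7% in those of XX genes (29.7 to 56.7%) and 52.7% over all windows. CpG dinucleotides had a median of 4 per window in coded genes (1 to 8), 1 in XX genes (0 to 8) and 7 over all windows.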

How the data were processed

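The series held CAGE and PAS-Seq libraries of mouse testis (3 libraries, 1 per group) and 1 deposited table of 50081 transcript models. Whether these libraries, or other data, shaped the models is not stated. The submitters' processing notes name TopHat2 2.0.4 and mm9. The assembly, filtering and coding of the models are not stated in the labels or the table. The values the authors deposited are positions, exon numbers and exon lengths in base pairs, with no normalization, and no column holds a value for a library. Positions are printed counted from 1.

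Models were read in Python 3.11.15 and grouped by symbol. RefSeq-named genes were symbols with at least 1 RefSeq-derived model, and the longest such model stood for the gene. Clusters joined Defb genes less than 500 kb apart, positions within 50 nt were merged, overlaps needed at least 1 bp, and the window for head-to-head starts and tail-to-tail ends was 500 bp. Shares have exact intervals (SciPy 1.17.1), and a share of 0 has the limit of 3 counts. Promoter windows and gene names came from RefSeq tables on GRCm38.p6 and were aligned with edlib. The code was tested on simulated models with planted clusters and overlaps. With 1 table and no replicates no test was made. The members and lists were chosen with earlier results of these data known. All coded Defb genes are named, with XX genes at the ends of ranges or clusters, those with extra or opposite-strand models, neighbours and list members. Any other gene was singled out with its values known, and so were the Defb-size background, TATATAA, the promoter groups and the 20000 bp limit. The planned description of cysteine patterns was not made, because no protein sequences were used here.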

Additional observations from a re-analysis of the deposited data

How the results depend on the processing

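The count of 11 coded Defb genes was the same with RefSeq-derived models alone, with 5 symbols known by older Defb names added (11 of 49 symbols, of which Gm15386 now belongs to Defb41, and Defa-ps12 and Defa-ps13 are also among the alpha-defensins) and without the 2 genes on unplaced sequence (11 of 42), the last chosen after the data were seen. Counted as models it was 13 of 46. Coded genes lay in 4 clusters with gaps of 100 kb (7 clusters) or 1 Mb (6 clusters). The 4 coded and 2 XX genes with 3 exons and the difference of 63 nt in median spliced length were the same whichever model stood for a gene, since 43 genes have 1 model. The counts that rest on assembled models changed. With RefSeq-derived models alone, the number of Defb genes with more than 1 start fell from 1 to 0, and the number with an opposite-strand model from 4 to 0, because these overlaps and starts come from CUFF models. With exon overlap, 1 gene had an opposite-strand model. Of 20 alternatives, 17 left the value within 1.5 times of that reported. Several of the 17 could not change it, since they altered the background alone or chose among models of genes that have 1 model. The tally is therefore no measure of how stable the results are. No paired analysis was possible because each group had 1 library and the table has no value per library. Without depth or levels, none of these counts measures expression.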

Other observations

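Families that are known, as the beta-defensins are, from the male tract also had coded and XX members in the table. Of 17 genes with a Wfdc symbol, whey acidic protein domain genes of which many lie in a cluster near Eppin, 9 were coded (52.9%). Of 9 cystatin genes with a Cst symbol 5 were coded (Cst12, Cst13, Cst3, Cst8 and Cst9), and of 4 Crisp genes, which encode cysteine-rich secretory proteins of sperm and epididymis, 2 were coded (Crisp1 and Crisp2). Lipocalins with an Lcn symbol and ribonucleases with an Rnase symbol stood lower, with 1 of 10 (Lcn2) and 1 of 8 (Rnase4). Over all RefSeq-named genes the share was 62.3%, above that of each of these families. Whether a mix of coded and XX members is particular to them was not tested. These families were picked after the codes of their listed members were seen.

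In the chromosome 8 groups of similar promoter windows, Defb9, Defb10 and Defb11 of the distal cluster were 69.6 to 72.7% identical to each other and all XX, and Defb38 and Defb39 of the proximal cluster were 64.3% identical and both XX. In the GRCm38.p6 table, predicted transcripts were listed for 4 Defb genes, the coded genes Defb14 and Defb42 and the XX genes Defb47 and Defb34.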
